A study of Caenorhabditis elegans with 2 samples.

Results

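Protein-coding promoter regions on the X chromosome were taken from a ChIP-seq experiment on CCCH-3, a CCCH zinc finger protein of Caenorhabditis elegans. A region belonged to the set if its summit, the position of strongest signal, fell in a window around the annotated start of a protein-coding gene on X, reaching 1000 bp upstream and 200 bp downstream. It also had to lie more than 500 bp from every annotated tRNA, snoRNA or snRNA gene. Of the 30000 candidate regions of the pooled list, 6982 were on X and 1325 of those met the rule, in the windows of 1196 genes. Another 39 regions of X lay in such a window but too close to a small RNA gene. The same rule gave 5667 regions on the 5 autosomes, which serve as the comparison.

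The worms were whole young adults of strain OP628, pooled males and females, harvested at 70 hours after synchronisation by bleaching and starvation at the first larval stage. They carry the integrated array wgIs628, in which ccch-3 on a fosmid is fused to TY1, EGFP and 3xFLAG, with unc-119(+) as marker in an unc-119(tm4063) background. The labels name no deletion of the worm's own ccch-3. Chromatin sheared to between 200 and 800 bp was precipitated with an antibody against GFP. There was a single group with 2 biological replicates, so no treated and untreated worms could be compared, and chromatin from all tissues of the animal was mixed.

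In C. elegans the X chromosome is treated differently from the autosomes. It carries few genes that are expressed in the germ line, where it is largely silenced, and in the somatic cells of hermaphrodites a dosage compensation complex binds both X chromosomes and lowers their transcription. That complex is first loaded at rex sites (recruitment elements on X), which hold a short GC-rich motif, and it then spreads to promoters of active genes. Many worm transcripts receive a spliced leader, so an annotated gene start can lie downstream of the true start of transcription. CCCH zinc fingers are best known for binding RNA.

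The authors' files give each candidate region a signal value, a score made with a control alignment, whose scale the sources used here do not state. Regions are ranked by this value within their own list, with rank 1 the highest. By their labels, the pooled and replicate lists hold peaks and background. The median pooled q-value of X promoter regions was 0.876, so being listed does not make a region a peak. The peaks of the authors' list thresholded by the irreproducible discovery rate (IDR), which compares ranks between replicates, are called reproducible here. They are the highest regions of the pooled list, down to a signal value of 94.4. An equal number of the highest regions of each replicate's own list is called its top set. Read depth cannot be had from these lists, and regions are not replicates of one another. Intervals therefore cover counting error only, and no test was made over regions.

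The sequences at the highest X promoter regions show what was recovered. Each line gives the genes whose window holds the summit and the 101 bases centred on it, read 5′ to 3′ on the plus strand of ce11. Capitals mark any of 7 short motifs on either strand: GGCCGA and the overlapping CGGCCA, then ACACGC and the overlapping GTACAC, and the hexamer GGCCTA, which an earlier search of these lists had found more often in the reproducible peaks, GCGCAGGG, a core of the rex motif, and GAGAGA. The sequence is that of the RefSeq genome.
nspc-17, rank 32, chrX:14525800-14525900: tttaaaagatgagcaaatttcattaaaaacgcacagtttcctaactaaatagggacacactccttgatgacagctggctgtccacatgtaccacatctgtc
T13C5.6, rank 84, chrX:6207865-6207965: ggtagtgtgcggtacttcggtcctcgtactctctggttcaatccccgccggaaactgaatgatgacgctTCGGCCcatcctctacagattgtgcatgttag
ins-39, rank 96, chrX:1344963-1345063: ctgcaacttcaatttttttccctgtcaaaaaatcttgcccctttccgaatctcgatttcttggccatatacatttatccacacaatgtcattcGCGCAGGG
ucr-2.1 and nmat-1, rank 148, chrX:12018016-12018116: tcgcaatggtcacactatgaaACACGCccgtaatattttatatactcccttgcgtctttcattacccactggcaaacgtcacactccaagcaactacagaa
spat-3, rank 180, chrX:4606437-4606537: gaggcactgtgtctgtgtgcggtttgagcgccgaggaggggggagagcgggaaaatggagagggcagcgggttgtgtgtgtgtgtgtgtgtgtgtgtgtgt
pdi-6, rank 183, chrX:7068638-7068738: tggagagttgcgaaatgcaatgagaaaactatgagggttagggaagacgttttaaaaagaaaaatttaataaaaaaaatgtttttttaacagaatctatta

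The share of X promoter regions among the reproducible peaks was lower than that of autosomal ones. Of the 1325 X promoter regions, 7 were reproducible (0.528%, 95% Wilson interval 0.256 to 1.09%), against 94 of the 5667 autosomal ones (1.66%, 1.36 to 2.03%) and 0.727% of all 30000 regions. The share on X was lower by 1.13 percentage points, a difference of -1.13 with a 95% Newcombe interval from -1.59 to -0.496. The autosomal share was 3.14 times that on X. The interval lies below 0, but it treats each region as an independent draw.

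The same order held in each replicate's own list, where a region was counted if it was in the top set (again 0.727% of each list). In replicate 1, 6 of 1234 X promoter regions were (0.486%), against 71 of 5647 autosomal ones (1.26%). In replicate 2, 5 of 1284 were (0.389%), against 100 of 5733 (1.74%). The difference was -0.771 percentage points in replicate 1 (95% Newcombe interval -1.19 to -0.144) and -1.35 in replicate 2 (-1.79 to -0.751). X stood lower in both replicates, and neither interval includes 0. The top set of replicate 1 included 16 mitochondrial regions. With those left out, 7 of 1234 X and 76 of 5647 autosomal promoter regions were in it, a difference of -0.779 (-1.22 to -0.122).

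The autosomes themselves differed. In the pooled list the reproducible share of promoter regions was 2.7% on chromosome III (24 of 888), 2.48% on II (24 of 968), 1.60% on IV (18 of 1128), 1.16% on I (10 of 860) and 0.987% on V (18 of 1823). X had the lowest share of the 6 chromosomes in the pooled list and in both replicate lists. Its interval in the pooled list overlaps those of I, IV and V, and its neighbour in the order is V, with 0.627% in replicate 1 and 1.05% in replicate 2. The difference of X from V was -0.459 percentage points in the pooled list (95% Newcombe interval -1.09 to 0.206), -0.141 in replicate 1 (-0.699 to 0.493) and -0.66 in replicate 2 (-1.29 to -0.0191). Only the interval of replicate 2 lies below 0. This comparison was chosen after the shares had been seen.

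**Figure D1:**
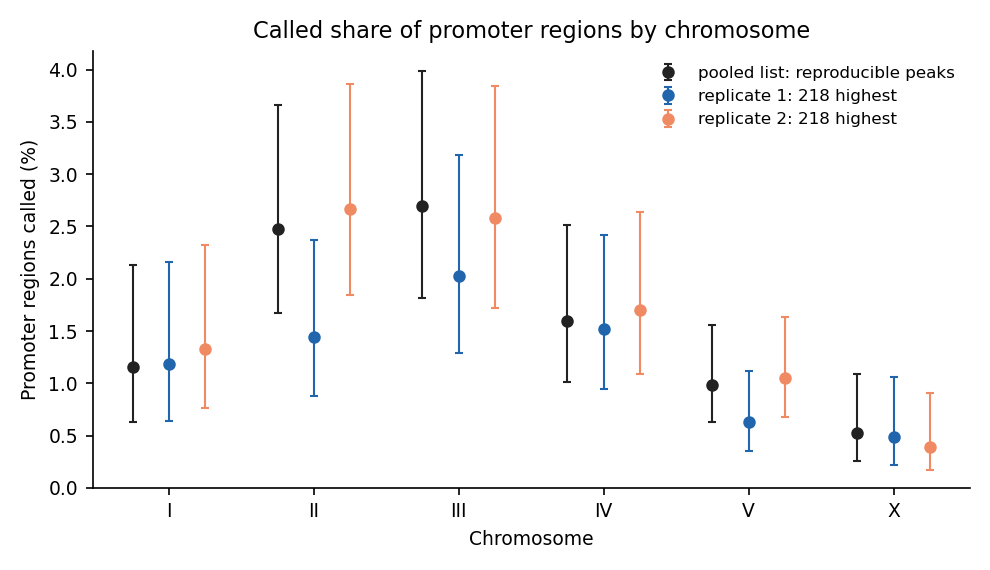
Share of promoter regions that were called, in percent, by chromosome, with 95% Wilson intervals as bars. Black points are reproducible peaks of the pooled list, and blue and orange points the regions in the top sets of replicate 1 and replicate 2. X is lowest in all 3 lists (0.528, 0.486 and 0.389%), and its intervals overlap those of V in each list.

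Away from promoters the order of X and the autosomes was the opposite. X held 57 of the reproducible peaks, of which 7 were promoter regions (12.3%), 33 lay within 500 bp of a tRNA, snoRNA or snRNA gene and 17 lay elsewhere. On the autosomes 94 of 161 were promoter regions (58.4%), 48 lay near small RNA genes and 19 elsewhere. Outside promoters 50 of 5657 X regions were reproducible (0.884%) against 67 of 17351 autosomal ones (0.386%), a difference of 0.498 percentage points (95% Newcombe interval 0.261 to 0.789). Regions that were neither promoters nor near small RNA genes showed the same order, with 0.313% on X and 0.113% on the autosomes. In replicate 1, 1% of the X regions outside promoters were in the top set against 0.398%, and in replicate 2 0.784% against 0.400%.

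**Figure D2:**
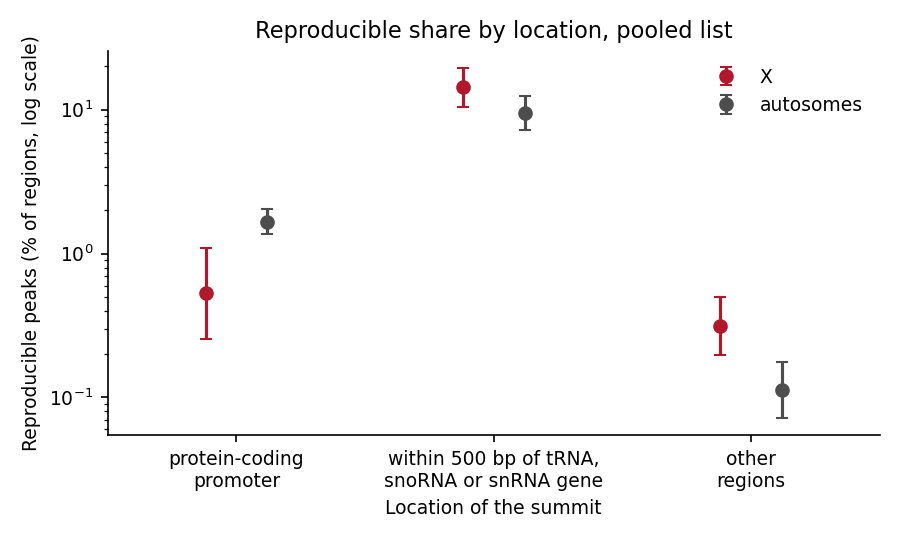
Share of regions that are reproducible peaks, in percent on a log axis, for X (red) and the autosomes (grey) in 3 classes of location, with 95% Wilson intervals. For promoter regions X lies below the autosomes (0.528 against 1.66%), while for regions near small RNA genes (14.3 against 9.50%) and for other regions (0.313 against 0.113%) it lies above. Near small RNA genes the intervals overlap (10.4 to 19.4% on X and 7.24 to 12.4% on the autosomes).

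As a ratio of shares, the gap was widest at the top of the ranking, with the autosomal share 3.14 times that on X for reproducible regions, 2.6 times for the highest 500, 1.74 times for the highest 1000 and 1.16 times for the highest 5000. Over the whole list, X promoter regions had a median rank of 14750 (quartiles 7582 and 22303), and autosomal ones 15053 (7031 and 22514). The median was 15064 on X against 14519 in replicate 1 and 13630 against 14420 in replicate 2, so the replicates ordered the medians in opposite ways. The median signal value in the pooled list was 38.3 on X and 38.0 on the autosomes. The signal value that 1% of the regions exceeded was 77.7 on X and 114 on the autosomes. The highest X promoter region had a signal value of 170 and the highest autosomal one 357, and 15 autosomal promoter regions ranked above every X promoter region.

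X made up 19% of all promoter regions. Among the reproducible ones it made up 6.93% (7 of 101, 95% Wilson interval 3.40 to 13.6%), at ranks 219 to 500 9.68% (5.18 to 17.4%) and at ranks 501 to 1000 17.3% (11.7 to 24.8%). From rank 1001 on, each class of ranks held between 17.4 and 21.2%. Counted the other way, 16 X promoter regions ranked within the highest 500 (1.21% against 3.14% of autosomal and 1.67% of all regions). Within the highest 1000 were 38 (2.87% against 4.99% and 3.33%), and within the highest 5000 were 216 (16.3% against 19% and 16.7%). Of regions outside promoters, X made up 24% at ranks 20001 to 30000 and 42.7% of the reproducible ones. The difference in share was -2.13 percentage points for the highest 1000 (95% Newcombe interval -3.10 to -0.952), -1.62 for the highest 2000 (-3.07 to 0.0135), -2.67 for the highest 5000 (-4.83 to -0.355) and -0.332 for the highest 10000 (-3.13 to 2.54). In percentage points the gap was thus larger for the highest 5000 than for the reproducible regions, and the intervals for the highest 2000 and 10000 include 0. In the own list of replicate 1 the difference was -0.368 for the highest 1000 (-1.48 to 0.97) and -0.976 for the highest 5000 (-3.24 to 1.45). In that of replicate 2 it was -2.48 (-3.52 to -1.23) and -0.851 (-3.13 to 1.58). Of these, only the interval for the highest 1000 of replicate 2 lies below 0.

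**Figure D3:**
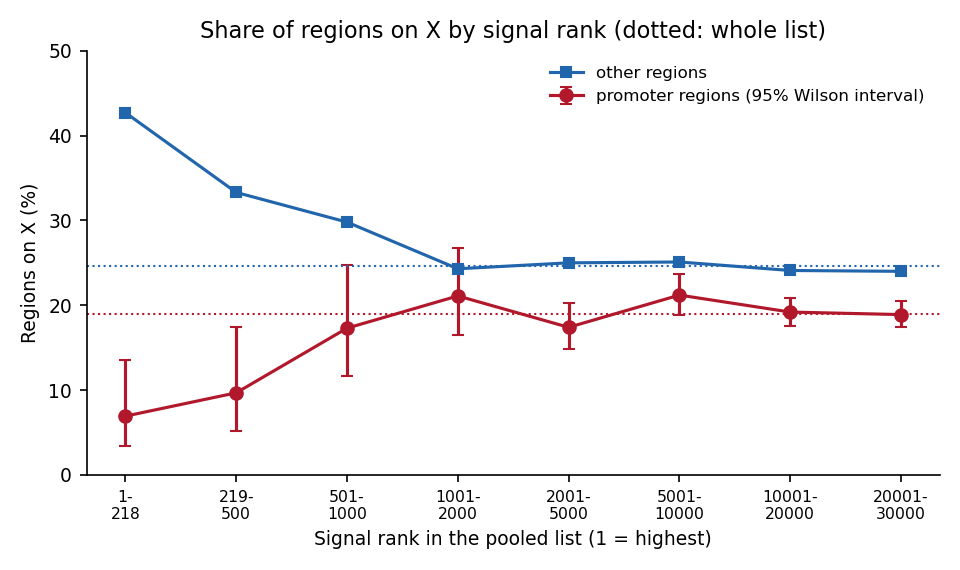
Share of regions that lie on X, in percent, by class of signal rank in the pooled list (left is highest), for promoter regions (red, with 95% Wilson intervals) and all other regions (blue). Dotted lines give the shares over the whole list, 19% and 24.6%. The red points are lowest in the first pair of classes (6.93 and 9.68%), where their intervals lie below their line, and the blue points are highest in the first 3 classes (42.7, 33.3 and 29.8%).

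The 7 reproducible X promoter regions held 8 genes. The highest (rank 32, signal value 170, q-value 0.00488) spans chrX:14525650-14526049. Its summit lies between genes, 669 bp upstream of nspc-17, which belongs to a family of small peptides found in nematodes. It ranked 33 in replicate 1 and 43 in replicate 2, with signal values of 84.5 and 90.3 in their own lists. The region at ins-39, which encodes an insulin-like peptide, spans chrX:1344813-1345212 (rank 96, signal value 127, q-value 0.00488). Its summit lies 592 bp upstream of the start, and it ranked 61 in replicate 1 and 187 in replicate 2. These were the only 2 of the 7 that were in the top set of both replicates. Of the 94 reproducible autosomal promoter regions, 49 were (52.1%). Over all promoter regions, 0.151% on X and 0.882% on the autosomes were matched to the top set of both.

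The region at T13C5.6, whose product RefSeq names as a phosphatidic acid phosphatase type 2 domain protein, spans chrX:6207715-6208114 (rank 84, signal value 133). It ranked 49 in replicate 2 and 331 in replicate 1. The region at chrX:12017866-12018265 (rank 148, signal value 108, q-value 0.0169) was the only one of the 7 between genes on opposite strands. Its summit lies 23 bp upstream of nmat-1, which encodes an enzyme of NAD synthesis, and 363 bp upstream of ucr-2.1, which encodes a core protein of respiratory complex III. It ranked 267 in replicate 1 and 294 in replicate 2, just outside the top set of both.

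The remaining 3 had signal values of 95.1 to 100, just inside the reproducible list. The summit at spat-3 (chrX:4606287-4606686, rank 180, q-value 0.0306), the gene of a RING finger ubiquitin ligase related to Polycomb proteins, lies 559 bp upstream of the start and ranked 190 and 441 in replicates 1 and 2. The summit at pdi-6 (chrX:7068488-7068887, rank 183, q-value 0.0301), which encodes a protein disulfide isomerase of the endoplasmic reticulum, lies 125 bp upstream. It ranked 123 in replicate 2 but only 2737 in replicate 1, so it rests mostly on replicate 2. The summit at F57G12.1 (chrX:12171891-12172290, rank 209, q-value 0.0264), an uncharacterized gene, lies 410 bp upstream and ranked 272 and 259.

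All 7 overlapped a listed region in both replicates, and 6 of them ranked within the highest 1000 of both. Of the 94 reproducible autosomal promoter regions, all 94 overlapped one in both and 83 (88.3%) ranked that high in both. IDR itself compares ranks between replicates, so this agreement is partly built into the choice of these regions. In replicate 1 the lowest q-value of any of them was 0.125, at nspc-17 and ins-39. No X or autosomal region of that list had a lower one. In replicate 2, q-values were 0.0102 at nspc-17, T13C5.6 and pdi-6, 0.0402 at ins-39 and 0.0909 to 0.192 at the others. The value 0.0102 was the lowest in that list. In the pooled list the lowest was 0.00488, shared by 103 regions. In the pooled list these 7 were also the X promoter regions whose q-value did not exceed 0.05 (0.528%), against 100 of 5667 autosomal ones (1.76%) and 0.763% of all regions.

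**Figure D4:**
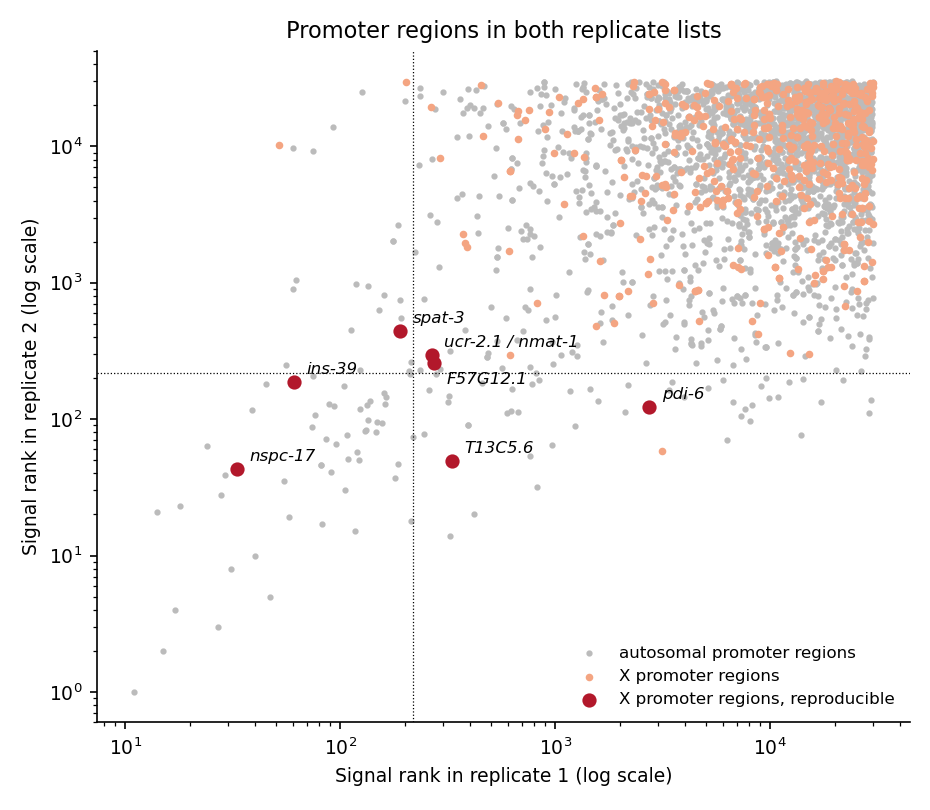
Signal rank of promoter regions in replicate 1 (x axis) and replicate 2 (y axis), both on log axes with the highest at the lower left, for regions that overlap a region in both lists. Grey points are autosomal, light points X, and large red points the 7 reproducible X regions with their genes. Dotted lines mark the end of each top set, and nspc-17 and ins-39 are the red points below and left of both.

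Below the reproducible list there was a gap on X from rank 209 to rank 284. The next region lies 107 bp upstream of kin-29, which encodes a salt-inducible kinase (signal value 86.7, q-value 0.0935). It ranked 58 in replicate 2 and 3136 in replicate 1. The following 9, at ranks 322 to 541 and signal values 74.2 to 83.4, lie at F22F1.3 (KIX domain), F55G7.1, nhr-3 (a nuclear hormone receptor), acl-1 (an acyltransferase), asp-3 and sgca-1 together (an aspartyl protease and a sarcoglycan), lsd-1 (a histone demethylase), epn-1 (an epsin of endocytosis), mans-3 (a mannosidase) and sto-4 (a stomatin). None of these 9 was in the top set of either replicate, and none had a pooled q-value under 0.126.

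Of the 3 highest X promoter regions, those at nspc-17 and ins-39 held the rex core. GCGCAGGG or its reverse complement CCCTGCGC occurred anywhere in the region in 3 of 1325 X promoter regions (0.226%), those at nspc-17, ins-39 and pcyt-2.2, a gene of phospholipid synthesis. These were ranked 32, 96 and 23246. The 20 bases around each are shown on the strand that reads the core, which is in capitals.
nspc-17, chrX:14525894-14525913, minus strand: cctatcGCGCAGGGacagat
ins-39, chrX:1345050-1345069, plus strand: tcattcGCGCAGGGcagctg
pcyt-2.2, chrX:7883247-7883266, plus strand: aaacatGCGCAGGGaacggt

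The centre of the core lay 53 bp from the summit at nspc-17 and 46 bp at ins-39, less than the length of a fragment, and 129 bp at pcyt-2.2. Of the 7 reproducible X promoter regions 2 held it. Among autosomal promoter regions 10 of 5667 held it (0.176%), 1 of them reproducible. Among X regions away from promoters and small RNA genes, 22 of 5426 held it (0.405%), and these included 9 of the 17 reproducible ones. On the autosomes 16 of 16846 such regions held it (0.095%), none of them reproducible. Over all classes, 13 of the 57 reproducible peaks on X held the core, and 27 of all 6982 X regions did (0.387%). A match of 8 letters is a description and does not show that the dosage compensation complex binds there.

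The other motifs occurred at similar shares of X and autosomal promoter regions, and the interval of each difference includes 0. Within 50 bp of the summit, on either strand, GGCCGA occurred in 1.74% of X and 1.84% of autosomal promoter regions, CGGCCA in 2.11 and 1.99%, GGCCTA in 2.26 and 1.92%, ACACGC in 2.42 and 2.06%, GTACAC in 2.72 and 3.00% and GAGAGA in 6.34 and 5.98%. Of the 94 reproducible autosomal promoter regions, 20 held GGCCGA, 20 CGGCCA, 20 GTACAC, 21 GGCCTA and 15 ACACGC, but these motifs were first found with these very peaks. Of the 7 on X, GGCCGA occurred at T13C5.6, ACACGC at nmat-1 and ucr-2.1 and GGCCTA at F57G12.1, and GTACAC and CGGCCA occurred at none. The highest X promoter region with CGGCCA had rank 429, and the highest with GTACAC rank 2935. Only 7 regions are too few to show that these motifs are rarer there.

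Of the 7 reproducible X regions, 3 overlapped a locus annotated as an unclassified non-coding RNA. The summit at T13C5.6 lies inside C14F11.14 (chrX:6207835-6207981, plus strand, 147 bp). F57G12.12, annotated on both strands over 308 bp (chrX:12171953-12172260), holds the summit at F57G12.1. The region at spat-3 overlaps T13H2.7 and T13H2.9, which lie on opposite strands over the same stretch (chrX:4606507-4606661 and chrX:4606512-4606661). Such loci overlapped 105 of 1325 X promoter regions (7.92%) and 208 of 5667 autosomal ones (3.67%), and 4 of the 94 reproducible autosomal ones (4.26%). Among regions with no such locus, 4 of 1220 on X (0.328%) and 90 of 5459 on the autosomes (1.65%) were reproducible. Among regions with such a locus the order was the opposite, with 3 of 105 on X (2.86%) and 4 of 208 on the autosomes (1.92%). The 95% Newcombe interval of that difference, -2.54 to 6.27 percentage points, includes 0.

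At T13C5.6 the sequence printed above also holds TTCNANNCC, 9 letters of the B box, the internal promoter element of tRNA genes. It was searched after the sequence had been seen, within 50 bp of the summit and on both strands. Of 318 regions whose summit is within 100 bp of an annotated tRNA gene, 124 held it (39%), against 4.53% of X promoter regions and 4.27% of autosomal ones. T13C5.6 was the only one of the 7 reproducible X regions that held it, and 15 of 94 did on the autosomes. The nearest annotated tRNA, snoRNA or snRNA gene is 12155 bp away.

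The spat-3 sequence ends in a run of alternating G and T. Of all 36-base stretches in that region 33.7% occur more than once in the genome, against 2.19% at T13C5.6 and 0% at the other 5. Reads from repeated stretches cannot be placed with certainty, and how the authors handled them is not stated. No other value of the 7 rests on such a share of repeated sequence.

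GC content differed little between X and autosomal promoter regions. The mean within 50 bp of the summit was 34.3% on X (SD 8.86, 1325 regions) and 34.5% on the autosomes (SD 8.65, 5667 regions). The 7 reproducible X regions ranged from 26.7% at pdi-6 to 62.4% at F57G12.1, with a mean of 46.8% (SD 12.7), and the 94 autosomal ones had a mean of 42.6% (SD 9.52). The share of reproducible regions was higher at higher GC on both, and X was lower at each level, with intervals of the difference that include 0 under 45% GC. Under 35% GC, 0.129% of X regions and 0.495% of autosomal ones were reproducible. From 35 to under 45% the shares were 0.781 and 2.20%, and at 45% or more 1.84 and 5.65%. The counts on X were 1, 3 and 3.

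X promoter regions lay farther from gene starts and more often faced a single gene. The median distance to the nearest protein-coding start was 392 bp on X (quartiles 145 and 661) and 317 bp on the autosomes (131 and 608). Starts on both strands lay in the window of 62 X regions (4.68%) and 690 autosomal ones (12.2%). Such shared windows were frequent among reproducible autosomal regions, with 42 of 94, and the X set had 1 of 7, at nmat-1 and ucr-2.1. Within windows with starts on both strands, 1.61% of X (1 of 62) and 6.09% of autosomal regions were reproducible, with a 95% Newcombe interval of the difference from -6.91 to 2.67 percentage points. Within those on a single strand, 0.475 and 1.04% were, with an interval from -0.982 to 0.0401. Both intervals include 0, so neither gap is separated from counting error.

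All 7 reproducible X summits lay upstream of their start, by 23 to 669 bp, and 3 of them by more than 500 bp. Over all members, 41.1% of X and 36.9% of autosomal promoter summits lay that far upstream, so 3 of 7 is near the share over X, while 10 of the 94 reproducible autosomal ones did (10.6%). Within 250 bp of a start, 3 of 511 X summits were reproducible (0.587%) against 57 of 2432 (2.34%), with a 95% Newcombe interval of the difference from -2.54 to -0.513 percentage points. Farther away, 4 of 814 were (0.491%) against 37 of 3235 (1.14%), and that interval, -1.18 to 0.174, includes 0. By annotation, 927 X promoter summits lay between genes (70% against 55.5% on the autosomes), 141 in introns, 132 in coding exons (9.96% against 20.3%) and 53 in 5′ UTRs. None of the 7 lay in an exon or intron of a protein-coding gene.

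**Figure D5:**
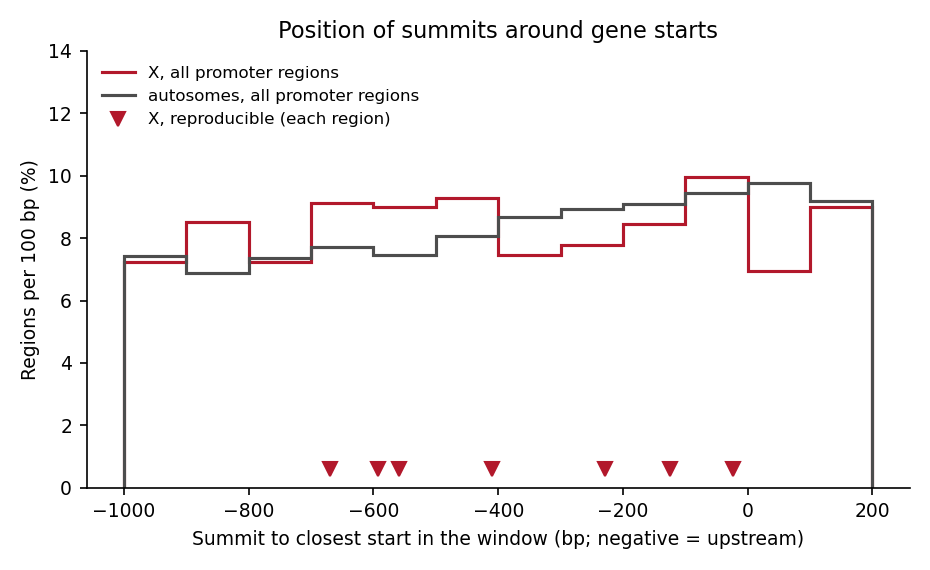
Position of promoter summits relative to the closest protein-coding start in the window, in bp with upstream negative, as the percent of regions per 100 bp for X (red) and the autosomes (grey). Triangles mark the 7 reproducible X regions, which lie from 669 to 23 bp upstream.

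By gene, more X promoters were listed as candidates and fewer were reproducible. Of 2731 protein-coding genes on X, 1196 had a promoter region in the pooled list (43.8%), against 5636 of 17242 autosomal genes (32.7%), a difference of 11.1 percentage points (95% Newcombe interval 9.13 to 13.1). A reproducible one was found for 8 X genes (0.293%) and 144 autosomal genes (0.835%), a difference of -0.542 percentage points (-0.748 to -0.232). Of the X genes with a region, 991 had 1, 198 had 2 and 7 had 3 or more.

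The replicates were compared at regions that overlapped in both. Both replicate lists held an overlapping region for 545 of the 1325 (41.1%), and for 2332 of the autosomal ones (41.2%). Across those regions, which share libraries and control, Spearman's rho between the replicates' ranks was 0.101 on X and 0.222 on the autosomes. Within the highest 1000 of both replicates were 8 X promoter regions (0.604%) and 105 autosomal ones (1.85%). The 8 included 6 of the 7 reproducible regions, a second region at nmat-1 and ucr-2.1, matched to the same region of replicate 2 as the first, and 1 at nhr-17, a nuclear hormone receptor gene. The nhr-17 region had only rank 10442 in the pooled list. Another region at nhr-17, of pooled rank 987, has the same matched rank in replicate 2 (707) but rank 8988 in replicate 1.

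Of 16 lists of genes, 1 held a reproducible X promoter. The lists were drawn by gene symbol and do not cover whole families: collagens were the col and sqt genes with dpy-7, lon-3 and rol-6, and potassium channels the twk, kvs, shk and slo genes with egl-2 and egl-36. Regions at the collagen genes dpy-8, dpy-3 and let-2 and at the potassium channel genes irk-2 and kqt-1 are thus not counted. Over all 1196 X genes with a promoter region, 8 had a reproducible one (0.669%), the median best rank was 13648, and 18.2% had a region within the highest 5000. Of 34 neuropeptide and insulin-like genes on X, 15 had a region, with a median best rank of 17300, and ins-39 was the only reproducible one. Of 23 nuclear hormone receptor genes 12 had one (median 14296), the best at nhr-3 with rank 382. Of 34 chemoreceptor genes 17 had one (median 15076), and the best was at odr-10, the diacetyl receptor (rank 2201). The listed collagen genes had 8 of 28 (median 14422), homeobox genes 9 of 21 (15511), ligand-gated channels 7 of 24 (13218) and potassium channels 6 of 13 (22785), with the best at col-168, ceh-28, acr-12 and twk-23 (ranks 6491, 4553, 1985 and 1155). Apart from ins-39, the best regions of these lists had pooled q-values from 0.182 at nhr-3 to 0.846 at col-168. They are candidates and not shown to be bound.

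The smaller lists held no reproducible X promoter region. The pooled q-values of their best regions ran from 0.597 at sex-1 to 0.891 at vit-4, so these too are only candidates. Both ribosomal protein genes on X had a region, rpl-25.1 at rank 5969 being the better, while 7 of 40 autosomal ribosomal protein genes with a promoter region had a reproducible one. Over all genes with a promoter region, 2.56% of autosomal and 0.669% of X genes had a reproducible one, and 2 genes on X are too few to compare. Of 5 chaperone genes on X 3 had a region, and hsp-3, of the Hsp70 family in the endoplasmic reticulum, was highest at rank 1251. Of 23 autosomal chaperone genes with a region, 4 had a reproducible one, beside the same 2.56% of all autosomal genes, and the comparison on X rests on 3 genes. Among 6 genes of sex determination and dosage compensation on X, 2 had a region, the better at sex-1, an X signal element that counts X chromosomes (rank 1210). The best ranks were 4178 at mlc-1 among 11 muscle genes, 9644 at elt-3 among 4 GATA factors and 10287 at unc-9 among 6 innexins. Among 5 vitellogenins, the yolk proteins, the best was 22015 at vit-4. A list drawn by the symbols daf, akt, sod, ctl and gst, which do not mark a single pathway, held 9 genes on X. Its best rank was 3941 at daf-9, and its other members with a region were daf-3 and gst genes. No gene of the CCCH list is on X.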

How the data were processed

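Peak lists came from 2 replicates of a single group. Per the deposited records of the files, each list is on assembly ce11 (the sequence of WBcel235) and was made against the same control alignment. The sources used here do not name the aligner, the caller or the IDR threshold. The signal value is a score set by the authors' caller, used only to describe and rank regions within a list, and the deposited −log10 q-value was turned into a q-value.

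Starts, biotypes and exons of genes were those of Ensembl release 115, and products and sequence those of RefSeq. A pooled region was counted as reproducible if the same region is in the IDR-thresholded list. Replicate regions were matched by an overlap of at least 1 bp and the nearest summit. Shares carry 95% Wilson and differences Newcombe intervals. The genes named were those at reproducible members, at the 10 next highest and the best of each list of 16. Members, lists and motifs were chosen with earlier results of these data known. The search in whole regions, the B box and the non-coding loci were added after seeing the data. The rule was checked on simulated regions. Python 3.11.15, pandas 2.3.3 and scipy 1.17.1 were used.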

Additional observations from a re-analysis of the deposited data

How the results depend on the processing

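The share of reproducible regions was lower on X than on the autosomes in all 15 alternatives tried, with differences of -2.75 to -0.594 percentage points. It was -2.75 where only regions matched in both replicates counted, -2.13 for the highest 1000 of the pooled list (chosen after seeing the data) and -1.61 with a window reaching 250 bp both ways. Counting matched regions only keeps the same 7 and 94 reproducible regions, now of 545 and 2332. Only the totals change, so it is no separate check. The same holds where only the strongest region of each gene counted (7 of 1130 and 94 of 4954). Several other settings also kept 7 on X. The autosomal count was 96 with the starts of all transcripts, 98 and 90 with distances of 100 and 1000 bp from small RNA genes, and 100 for q-values up to 0.05. The alternatives thus share most of their regions and are not independent checks. The difference was -0.594 with a window of 2000 bp upstream to 500 bp downstream and -0.638 for the higher-ranked part of the reproducible list. Leaving out a replicate gave -1.35 to -0.771, and a 1 bp overlap with a reproducible peak -1 (12 of 1325 against 108 of 5667). The X regions added by the overlap at spat-3, nmat-1 and ucr-2.1, F57G12.1 and T13C5.6 overlap peaks already counted among the 7. That at fbxb-58 overlaps a peak outside the promoter window. The difference in median rank, X minus autosomes, was -303 and moved to 952 where only matched regions counted and from -790 to 544 without a replicate, so its sign is not settled. For GC content the difference of -0.232 percentage points became -0.659 within 25 bp and 0.138 within 150 bp, and -0.626 to -0.136 without a replicate. The median distance to a start was 357 bp with the starts of all transcripts and 396 to 410 bp without a replicate. The cause of the other shifts was not tested. No paired analysis was possible because there is a single group. With 7 regions on X, each further region would move the share, and the unknown depth and control limit all of these values.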

Other observations

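The nspc genes, a family of nematode peptides, lie in clusters on X. Of the 18 loci of this family on X, nspc-17 alone had a promoter region in the reproducible list. The next best was nspc-20 at rank 2423, and the other members with a promoter region ranked 15887 or lower. The family was looked at after the rank of nspc-17 had been seen.

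Some X promoter regions were matched to a high region in 1 replicate only. The region at asb-2, which encodes a subunit of the mitochondrial ATP synthase, ranked 203 in replicate 1 and 29727 in replicate 2. That at C33A11.2 ranked 102 in replicate 1 and overlapped no listed region of replicate 2. That at fbxb-58 ranked 52 in replicate 1, 10148 in replicate 2 and 7611 in the pooled list, where it overlaps by 199 bp a reproducible peak of rank 26 whose own summit is 1006 bp from the nearest start, just outside the window.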
